A study of Homo sapiens with 12 samples.

Results

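The heat shock protein and DNAJ families, the chaperones and J proteins that fold and refold the proteins of the cell, were followed at the RNA level in OCI-Ly7, an established human line of the germinal-centre type of diffuse large B-cell lymphoma. Members were taken by name: protein-coding genes of the count table whose symbol starts with DNAJ, HSPA, HSPB, HSPD, HSPE, HSPH or HSP90, leaving out pseudogenes and the binding proteins HSPBP1 and HSPBAP1. This gave 73 of the 78892 genes in the table, and no measured value entered the choice. The 12 libraries fell into 4 groups of 3. The HDAC3i group received an inhibitor of the histone deacetylase HDAC3 at 15 µM on days 2 and 4. The AZA group received 5-azacitidine, a cytidine analogue that blocks DNA methyltransferases, in a daily dose of 100 nM from day 0 through day 4. The HDAC3i+AZA group received both drugs at those doses, the vehicle group received neither, and RNA was taken on day 5 in every group. The labels name the inhibitor by its target alone, all groups are of 1 cell line, and whether the 3 libraries within a group stem from separate cultures is not stated in the labels. The p-values therefore measure the spread between libraries, which may be technical.

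Chaperones of the HSP70 class (HSPA genes) bind unfolded stretches of protein in a cycle driven by ATP. J proteins (DNAJ genes) deliver the substrate and start ATP hydrolysis, and exchange factors such as the HSP110 proteins reopen the cycle. HSP90 chaperones take over late folding of kinases, transcription factors and other clients, HSPD1 and HSPE1 form the folding chamber of mitochondria, and HSPA5, HSP90B1 and their J proteins do the same work in the endoplasmic reticulum (ER). Heat shock factor HSF1 drives the inducible members in the cytosol, the unfolded protein response drives those of the ER, and cells of the B lineage are known for the ER set, which folds their antibodies.

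Sequencing depth was even, between 35.948 and 36.337 (in 1e+06 counts) per library. Levels are given in CPM, counts per 1e+06 of the TMM-scaled library total, and genes count as called where their adjusted p was below 0.05 in the edgeR quasi-likelihood F-test with Benjamini-Hochberg adjustment over the 17869 genes tested. Of the 73 members, 61 entered the test. The other 12 had too few counts in all groups: HSPA4L, HSPA12A, DNAJB7, DNAJB8, HSPB2, HSPB3, HSPB6, HSPB7, HSPB8, HSPB9 and the readthrough genes DNAJC25-GNG10 and HSPE1-MOB4. Of these, 6 had no count in any library. For HSPE1-MOB4 the counting allowed none, since all of its exonic bases are shared with other genes and reads over shared bases were dropped. For the other 5 a count of 0 allows up to 3 counts, 0.0813 to 0.0857 CPM, per library (counting error only), and for HSPB2 this covers only the remainder of an exon sequence that is 85.5% shared. The share of mitochondrial transcripts was 12.1% to 13.0% in HDAC3i, 10.01% to 13.8% in AZA, 12.5% to 15.3% in HDAC3i+AZA and 9.59% to 10.5% in vehicle libraries. It was highest within their groups in AZA replicate 1 and HDAC3i+AZA replicate 3, and AZA replicate 1 also differed most from its fellow libraries. All 8 B-cell markers were detected in every group, with summed levels of 3929 to 3998 CPM in HDAC3i, 3138 to 3364 in AZA, 3971 to 4070.5 in HDAC3i+AZA and 3006 to 3175 in vehicle. The 4 T and NK cell markers summed to 6.34 to 7.34 CPM in HDAC3i, 1.19 to 2.06 in AZA, 8.87 to 10.3 in HDAC3i+AZA and 0.829 to 1.24 in vehicle, with 1 marker at 0 in each group but HDAC3i+AZA. The 4 monocyte and granulocyte markers summed to 1.08 to 1.54, 0.109 to 0.38, 2.3 to 2.47 and 0.327 to 0.442 CPM in the same groups, with 2, 2, 1 and 2 markers at 0. These sums moved with the inhibitor, but single markers carried much of the change. From vehicle to HDAC3i the mean of MS4A1 went from 872 to 1446 CPM, CD3E from 1.03 to 6.49 and LYZ from 0.0188 to 0.966. The markers BCL6 (238 to 209.8), MME (52.4 to 43.4) and CD14 (0.36 to 0.303) went the other way. The part of the sums in the results below was not tested. Fewer cells of a type and less RNA per cell cannot be told apart in these bulk libraries.

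With the inhibitor most of the abundant chaperones of the cytosol and mitochondria fell, while most of those of the ER rose. Against vehicle, 20 of the 61 tested members rose and 28 fell in HDAC3i, where 26.4% of all genes tested were called higher and 24.9% lower. The median log2 fold change of the members was -0.15, and that of all genes tested was 0.00. These medians are not matched for level, and genes of at least 5 CPM were more often called lower than higher, as given below. Of the 48 called members, 47 had HDAC3i and vehicle libraries that did not overlap, the exception being DNAJC4, and the same held for 96.9% of all genes called. Among the 50 members with a mean of at least 5 CPM over the 12 libraries, 14 rose and 28 fell, where 22.2% of all genes of that level were called higher and 40.3% lower. Of these 50 members 6 rose and 4 fell by 0.5 or more on the log2 scale, where 9.94% of all genes of that level rose and 6.19% fell by that much. The summed level of all 73 members was 13912 ± 478 CPM in HDAC3i, 17043 ± 762 in AZA, 13396 ± 671 in HDAC3i+AZA and 17033 ± 675 in vehicle (SD, n = 3 each). HDAC3i and HDAC3i+AZA libraries lay below all vehicle libraries in that sum, and AZA libraries overlapped them.

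**Figure D1:**
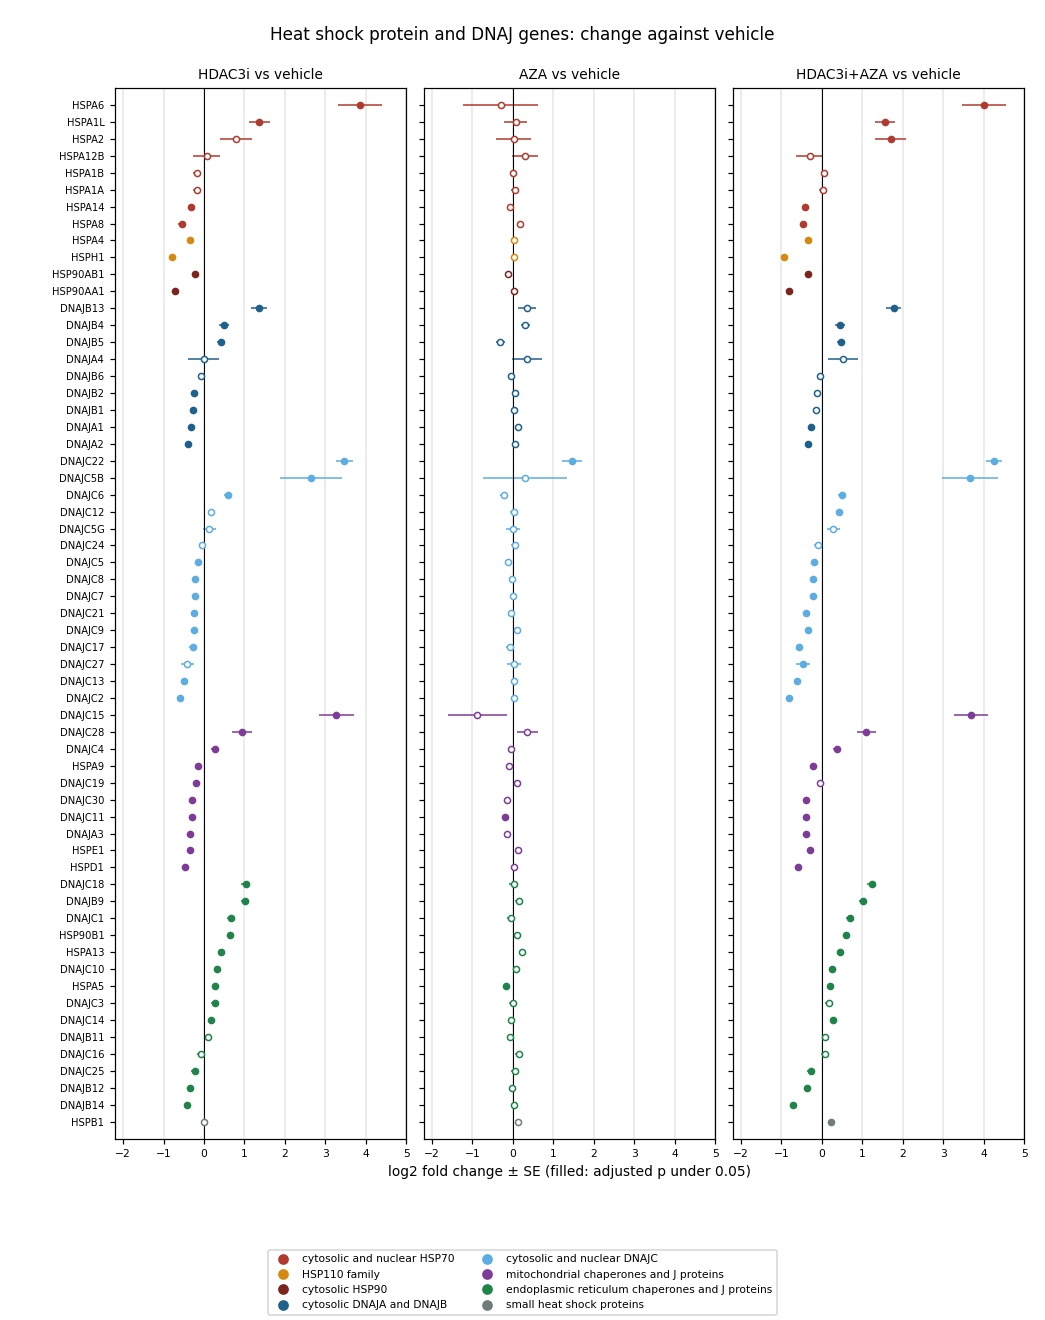
Log2 fold change (horizontal axis, ± SE from the edgeR fit of 3 libraries a group) of the 61 tested members in HDAC3i, AZA and HDAC3i+AZA against vehicle, coloured by class; filled circles have an adjusted p under 0.05. Most ER members lie right of 0 and the HSP90 and HSP110 members left of it in both inhibitor groups, and 3 circles are filled in the AZA panel.

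Promoters were searched for the binding motifs of the 2 stress pathways named above. The windows were the RefSeq promoters (GRCh38.p14, 250 bases before to 50 after the start of the gene), found for 66 of the 73 members. The heat shock element, written GAANNTTCNNGAA and searched on both strands, matched in 4 of the 66 member promoters (6.06%) and in 133 of all 27305 promoters of that length (0.487%). The ER stress element, written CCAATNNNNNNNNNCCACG and searched on both strands, matched in 2 of the 66 (3.03%) and in 22 of the 27305 (0.0806%). No promoter held both motifs. The 6 promoters with a match are shown 5′ to 3′ on the strand of the gene, with each match in capitals, also where it reads on the opposite strand. HSPA5 (chr9:125241294-125241593, minus strand) and HSP90B1 (chr12:103930160-103930459, plus strand) hold the ER stress element. HSPA8 (chr11:123062087-123062386, minus strand), DNAJA1 (chr9:33025023-33025322, plus strand), HSPA6 (chr1:161524290-161524589, plus strand) and DNAJB6 (chr7:157336754-157337053, plus strand) hold the heat shock element.
HSPA5: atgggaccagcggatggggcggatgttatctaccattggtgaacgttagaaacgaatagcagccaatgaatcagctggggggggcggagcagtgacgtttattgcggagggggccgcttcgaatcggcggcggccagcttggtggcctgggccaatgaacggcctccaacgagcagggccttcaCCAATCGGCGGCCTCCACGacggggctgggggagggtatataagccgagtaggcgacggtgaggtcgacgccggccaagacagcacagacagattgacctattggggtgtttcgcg
HSP90B1: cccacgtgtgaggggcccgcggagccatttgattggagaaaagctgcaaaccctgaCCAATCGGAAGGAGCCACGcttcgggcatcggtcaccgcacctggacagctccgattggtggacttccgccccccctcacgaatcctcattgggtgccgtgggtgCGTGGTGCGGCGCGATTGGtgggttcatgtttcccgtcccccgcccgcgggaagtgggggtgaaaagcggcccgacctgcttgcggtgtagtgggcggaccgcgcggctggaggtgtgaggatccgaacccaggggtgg
HSPA8: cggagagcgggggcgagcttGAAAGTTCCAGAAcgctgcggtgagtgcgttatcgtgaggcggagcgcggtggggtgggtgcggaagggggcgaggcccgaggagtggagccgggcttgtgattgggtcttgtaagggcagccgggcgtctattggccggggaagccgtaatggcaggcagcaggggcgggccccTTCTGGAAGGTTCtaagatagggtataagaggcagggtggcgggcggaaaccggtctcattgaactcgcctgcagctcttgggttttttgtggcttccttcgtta
DNAJA1: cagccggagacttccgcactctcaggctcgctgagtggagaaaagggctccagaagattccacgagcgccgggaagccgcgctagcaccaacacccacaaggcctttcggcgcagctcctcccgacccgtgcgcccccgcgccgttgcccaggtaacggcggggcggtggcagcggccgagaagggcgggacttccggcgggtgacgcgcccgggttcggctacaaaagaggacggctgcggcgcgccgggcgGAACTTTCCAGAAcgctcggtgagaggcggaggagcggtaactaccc
HSPA6: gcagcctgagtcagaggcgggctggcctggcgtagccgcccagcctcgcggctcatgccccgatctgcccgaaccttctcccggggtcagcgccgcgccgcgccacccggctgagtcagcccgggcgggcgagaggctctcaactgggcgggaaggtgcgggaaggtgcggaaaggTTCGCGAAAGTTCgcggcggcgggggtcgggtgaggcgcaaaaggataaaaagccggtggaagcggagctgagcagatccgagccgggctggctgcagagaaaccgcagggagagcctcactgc
DNAJB6: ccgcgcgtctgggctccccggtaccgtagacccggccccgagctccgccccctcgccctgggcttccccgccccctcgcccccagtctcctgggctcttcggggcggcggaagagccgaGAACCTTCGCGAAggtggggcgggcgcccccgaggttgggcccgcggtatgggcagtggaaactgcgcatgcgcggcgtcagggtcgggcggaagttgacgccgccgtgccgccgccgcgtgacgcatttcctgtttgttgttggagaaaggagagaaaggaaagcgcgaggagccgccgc
A match is a description of these letters and not evidence of binding. A missing match likewise does not show that a promoter lacks a working element. The heat shock element as written had no match in the windows of HSPA1A, HSPA1B, DNAJB1 or HSP90AA1, all named below as inducible. For HSP90AA1 the window (chr14:102139700-102139999) lay just beyond the upstream edge of the gene in the count table (102080742-102139699). The ER stress element as written had none in DNAJB9. In HDAC3i both genes with a match to the ER stress element rose. Of the 4 with a match to the heat shock element HSPA8 and DNAJA1 fell, HSPA6 rose and DNAJB6 was not called.

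Cytosolic HSP90 fell with the inhibitor. HSP90AB1, the constitutive isoform, was the most abundant member per length in vehicle, at 1469 CPM per kb of exon, ahead of HSP90AA1, the inducible isoform, at 547 and HSPA8 at 494. Over the exonic bases that no other gene shares, the only ones counted, HSP90AB1 stayed first at 1478 CPM per kb, and HSPA8 at 626 stood above HSP90AA1 at 569. HSP90AA1 had 1773, 1682 and 1642 CPM in HDAC3i, 2919, 2945 and 2714 in AZA, 1442, 1774 and 1546 in HDAC3i+AZA and 2919.9, 2743 and 2702 in vehicle. Every library with the inhibitor lay below every library without it. The log2 fold change against vehicle was -0.71 ± 0.06 in HDAC3i (SE; edgeR adjusted p = 1.99e-10) and -0.81 ± 0.06 in HDAC3i+AZA (edgeR adjusted p = 9.99e-12). HSP90AB1 had 3879.6, 3757 and 3758 CPM in HDAC3i, 4246, 4055 and 3792 in AZA, 3488, 3585 and 3384 in HDAC3i+AZA and 4496, 4394 and 4244 in vehicle. Its fall was smaller, with a log2 fold change of -0.21 ± 0.05 in HDAC3i (edgeR adjusted p = 0.00118) and -0.33 ± 0.05 in HDAC3i+AZA (edgeR adjusted p = 2.93e-06), and neither group overlapped vehicle. Together the isoforms summed to 5498 ± 136 CPM in HDAC3i, 6890.2 ± 343 in AZA, 5073 ± 248 in HDAC3i+AZA and 7166 ± 237 in vehicle (SD, n = 3 each).

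The constitutive HSP70 and the HSP110 exchange factors fell beside HSP90. HSPH1, which reopens the HSP70 cycle, had the largest fall of any member: 304, 287 and 275 CPM in HDAC3i, 491, 531 and 498 in AZA, 251, 286 and 243 in HDAC3i+AZA and 519, 494 and 482 in vehicle. Its log2 fold change was -0.79 ± 0.06 in HDAC3i (edgeR adjusted p = 1.27e-11) and -0.94 ± 0.06 in HDAC3i+AZA (edgeR adjusted p = 2.28e-13), with no overlap between inhibitor and vehicle libraries. HSPA4, its close relative, fell by less, at -0.35 ± 0.05 in both groups. HSPA8, the housekeeping HSP70 whose promoter holds 2 heat shock elements, had 1876, 1584 and 1453 CPM in HDAC3i, 2899, 2768 and 2419.9 in AZA, 1770.2, 1896 and 1569.9 in HDAC3i+AZA and 2706, 2321 and 2152 in vehicle. Libraries of a group spread more for HSPA8 than for HSPH1, yet all inhibitor libraries lay below all vehicle libraries, with log2 fold changes of -0.55 ± 0.08 in HDAC3i (edgeR adjusted p = 4.76e-06) and -0.46 ± 0.08 in HDAC3i+AZA (edgeR adjusted p = 4.3e-05). Of its exonic bases 21.2% are shared with other genes, and reads over shared bases were not counted. HSPA14, a ribosome-bound HSP70 relative, also fell, at -0.31 ± 0.06 in HDAC3i and -0.41 ± 0.06 in HDAC3i+AZA.

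The stress-inducible HSP70 pair was not called where HSPA8 was. HSPA1A had 19.8, 17.9 and 17.3 CPM in HDAC3i, 23.9, 22.1 and 18.8 in AZA, 22.3, 21.3 and 20.4 in HDAC3i+AZA and 24.9, 18.6 and 18.7 in vehicle. HSPA1B had 19.1, 17.6 and 18 CPM in HDAC3i, 22, 21.2 and 18.8 in AZA, 24.3, 21 and 18.9 in HDAC3i+AZA and 22, 20.2 and 19.3 in vehicle. Neither gene was called in any comparison, though the HSPA1B libraries of HDAC3i all lay below those of vehicle. The HSPA1A libraries of HDAC3i all lay below those of HDAC3i+AZA. The log2 fold changes were -0.18 ± 0.10 for HSPA1A and -0.17 ± 0.09 for HSPA1B in HDAC3i, and 0.04 ± 0.10 and 0.06 ± 0.09 in HDAC3i+AZA (edgeR adjusted p between 0.11 and 0.758). The HDAC3i+AZA values changed sign when single libraries were left out. The coding sequences are near-identical, so how reads were divided between the pair is uncertain, and 36.6% of the exonic bases of HSPA1B are shared with SNHG32. Their sum avoids the division: 38.9, 35.5 and 35.3 CPM in HDAC3i, 45.9, 43.4 and 37.6 in AZA, 46.6, 42.3 and 39.3 in HDAC3i+AZA and 46.8, 38.9 and 38 in vehicle, with overlap between each drug group and vehicle.

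**Figure D2:**
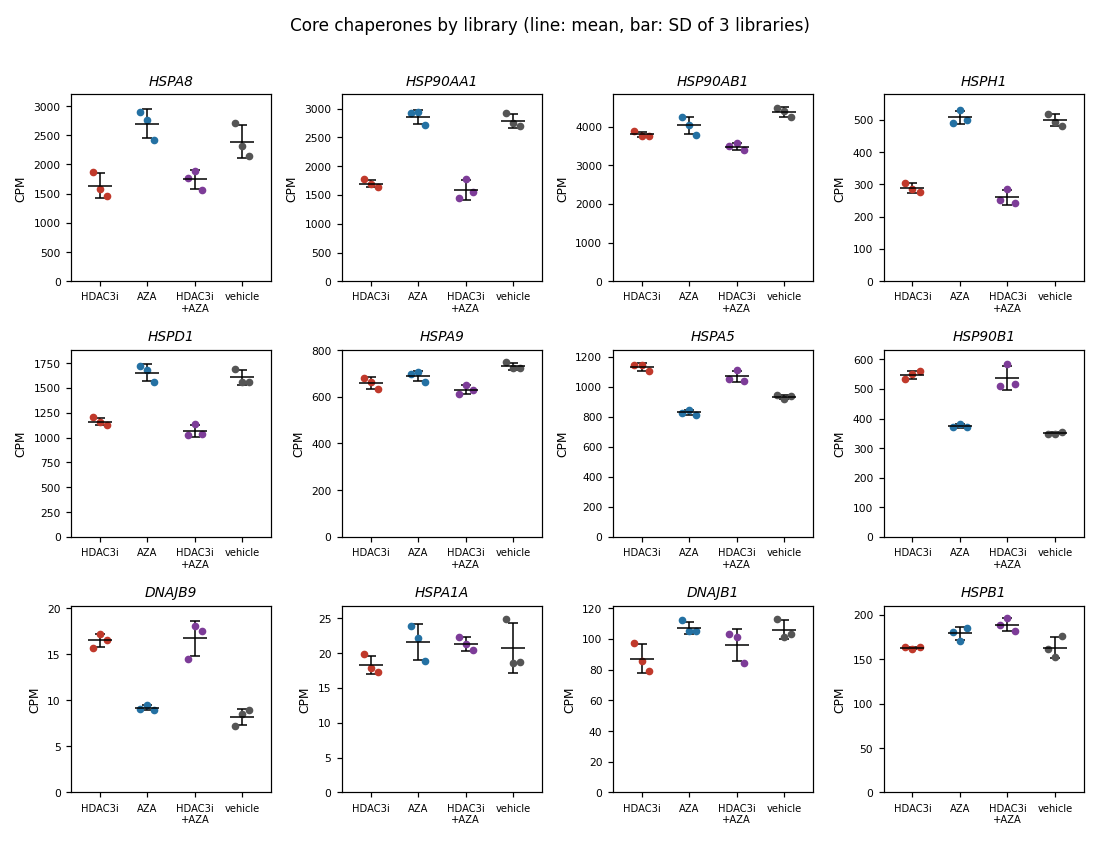
Level in CPM (vertical axis from 0) of 12 core chaperones in each library of the HDAC3i, AZA, HDAC3i+AZA and vehicle groups; points are libraries, lines are means and bars are SD of 3 libraries. HSPA8, HSP90AA1, HSP90AB1, HSPH1, HSPD1 and HSPA9 sit lower with the inhibitor than in vehicle, and HSPA5, HSP90B1 and DNAJB9 sit higher. The HSPA1A libraries of each drug group overlap those of vehicle.

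Most of the abundant cytosolic J proteins that serve HSPA8 fell modestly in HDAC3i. Of 9 tested DNAJA and DNAJB members of the cytosol, 3 rose and 4 fell in HDAC3i, against 3 and 2 in HDAC3i+AZA. The shares of all genes called higher and lower were 26.4% and 24.9% in HDAC3i and 29.6% and 27.5% in HDAC3i+AZA. Among genes with a mean of at least 5 CPM 40.3% were called lower in HDAC3i. DNAJA1, a farnesylated partner of HSPA8, had 411, 399 and 379 CPM in HDAC3i, 527, 548 and 530.4 in AZA, 399, 448 and 376 in HDAC3i+AZA and 514, 479 and 485 in vehicle. Inhibitor libraries lay below vehicle libraries, with log2 fold changes of -0.31 ± 0.06 (edgeR adjusted p = 4.31e-05) in HDAC3i and -0.27 ± 0.06 (edgeR adjusted p = 0.000182) in HDAC3i+AZA. DNAJB1, the classical heat-inducible J protein, had 97.6, 85.4 and 78.8 CPM in HDAC3i, 112, 105 and 105 in AZA, 103, 101 and 84.4 in HDAC3i+AZA and 113, 101 and 103 in vehicle. It fell in HDAC3i, by 0.28 ± 0.07 (edgeR adjusted p = 0.00233), but was not called in HDAC3i+AZA, at -0.14 ± 0.07 (edgeR adjusted p = 0.112), where the groups overlapped. DNAJA2 (-0.39) and DNAJB2 (-0.25) also fell in HDAC3i. In HDAC3i+AZA DNAJA2 fell (-0.34) and DNAJB2 was not called (-0.12, edgeR adjusted p = 0.0804). DNAJB6, at a mean of 106 CPM over the 12 libraries, was called in neither group (-0.08 in HDAC3i and -0.05 in HDAC3i+AZA). The 3 that rose were far lower in level: DNAJB4 (0.49), DNAJB5 (0.43) and DNAJB13 (1.35), a protein of the radial spokes of sperm and cilia.

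HSPB1, a small heat shock protein that holds unfolded proteins in solution, was the only 1 of 7 small heat shock members that could be tested. It had 164, 162 and 164 CPM in HDAC3i, 181, 171 and 185 in AZA, 189, 196 and 182 in HDAC3i+AZA and 161, 152 and 176 in vehicle. HDAC3i libraries lay within the vehicle range, with a log2 fold change of 0.00 ± 0.05 whose sign changed with single libraries left out, and HDAC3i+AZA libraries lay above it. HSPB1 rose in HDAC3i+AZA by 0.22 ± 0.05 against vehicle (edgeR adjusted p = 0.00144) and by 0.21 ± 0.05 against HDAC3i (edgeR adjusted p = 0.0164), but the last call was lost when any HDAC3i library was left out (edgeR adjusted p of 0.0612 to 0.0741). In a list of 14 members known as heat-inducible, 13 were tested, 2 rose (HSPA6 and DNAJB4) and 8 fell in HDAC3i, with a median of -0.28. The shares of all genes called were 26.4% higher and 24.9% lower there, and 40.3% lower among genes with a mean of at least 5 CPM. In HDAC3i+AZA 3 rose and 7 fell, where 29.6% of all genes were called higher and 27.5% lower. HSPA6 entered the test only through the inhibitor groups, so its place among the rises was shaped by the filter.

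Mitochondrial chaperones fell as well. Of 10 tested members 3 rose and 7 fell in HDAC3i, where 26.4% of all genes tested were called higher and 24.9% lower. Among genes with a mean of at least 5 CPM 40.3% were called lower there. In HDAC3i+AZA 3 rose and 6 fell, where the shares of all genes were 29.6% and 27.5%. The members that rose were of low level or small effect, and DNAJC15 among them entered the test only through the inhibitor groups. HSPD1, the chaperonin of the matrix, had 1202, 1152 and 1129 CPM in HDAC3i, 1723, 1679 and 1561 in AZA, 1028, 1132 and 1036 in HDAC3i+AZA and 1689.5, 1563 and 1563 in vehicle. Inhibitor and vehicle libraries stood wide apart, with log2 fold changes of -0.47 ± 0.05 in HDAC3i (edgeR adjusted p = 4.16e-08) and -0.59 ± 0.05 in HDAC3i+AZA (edgeR adjusted p = 3.88e-10). HSPE1, its co-chaperonin lid, is transcribed from a shared promoter region in the opposite direction and had 46.8, 45.6 and 46.1 CPM in HDAC3i, 62.5, 62.1 and 66.4 in AZA, 48, 48.4 and 47.9 in HDAC3i+AZA and 61.4, 56.8 and 57.7 in vehicle. It fell by 0.35 ± 0.06 in HDAC3i (edgeR adjusted p = 1.01e-05) and by 0.28 ± 0.06 in HDAC3i+AZA (edgeR adjusted p = 9.1e-05). The level of HSPE1 is understated, since 17.9% of its exonic bases overlap HSPD1 or the readthrough gene HSPE1-MOB4 and counting ignored strand.

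HSPA9, the HSP70 of the mitochondrial import motor, moved least of the abundant mitochondrial members. It had 681, 665 and 633 CPM in HDAC3i, 699, 705 and 662 in AZA, 612, 650.1 and 627 in HDAC3i+AZA and 748, 724 and 721 in vehicle. Its fall in HDAC3i was -0.15 ± 0.05 on the log2 scale (edgeR adjusted p = 0.0127), without overlap, but a filter at 5 CPM brought it to -0.07 and ended the call (edgeR adjusted p = 0.172), as did leaving out HDAC3i replicate 3 or vehicle replicate 1. In HDAC3i+AZA it was -0.22 ± 0.05 (edgeR adjusted p = 0.000451). DNAJA3, its J protein partner, fell by 0.35 ± 0.05 in HDAC3i, and DNAJC11, of the inner membrane junctions, by 0.30 ± 0.06. DNAJC19 (-0.19) and DNAJC30 (-0.29) fell too, and DNAJC4 (0.26) rose with overlapping libraries.

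The ER set went the other way. Of 14 tested ER members 9 rose and 3 fell in HDAC3i, where 26.4% of all genes tested were called higher and 24.9% lower. In HDAC3i+AZA 8 rose and 3 fell, where the shares of all genes were 29.6% and 27.5%. The median of the ER members was 0.27 in HDAC3i and 0.23 in HDAC3i+AZA. Their summed level was 2273 ± 15 CPM in HDAC3i, 1732 ± 40.8 in AZA, 2187 ± 103 in HDAC3i+AZA and 1799 ± 20.3 in vehicle (SD, n = 3 each). HSPA5, the HSP70 of the ER lumen (BiP), had 1144, 1147 and 1102 CPM in HDAC3i, 824, 846 and 814 in AZA, 1053, 1111 and 1039 in HDAC3i+AZA and 942, 918 and 937 in vehicle. The groups did not overlap vehicle, and the log2 fold changes were 0.28 ± 0.05 in HDAC3i (edgeR adjusted p = 1.58e-05) and 0.20 ± 0.05 in HDAC3i+AZA (edgeR adjusted p = 0.000795). HSP90B1, the HSP90 of the ER lumen, whose promoter holds the ER stress element in 2 places, had 535, 549 and 561 CPM in HDAC3i, 371, 382 and 373 in AZA, 509.9, 584 and 516 in HDAC3i+AZA and 348, 349 and 355 in vehicle. It rose by 0.65 ± 0.05 in HDAC3i (edgeR adjusted p = 6.53e-11) and by 0.61 ± 0.05 in HDAC3i+AZA (edgeR adjusted p = 1.08e-10), again without overlap.

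Among the ER J proteins the largest rises were in DNAJC18 and DNAJB9. DNAJB9, which recruits HSPA5 to misfolded proteins and to the sensor IRE1, had 15.7, 17.2 and 16.5 CPM in HDAC3i, 9.03, 9.47 and 8.98 in AZA, 14.5, 18 and 17.5 in HDAC3i+AZA and 7.21, 8.51 and 8.9 in vehicle. Its log2 fold change was 1.01 ± 0.10 in HDAC3i (edgeR adjusted p = 2.14e-09) and 1.02 ± 0.10 in HDAC3i+AZA (edgeR adjusted p = 1.01e-09), with no overlap. DNAJC18, an ER membrane J protein, had 12.6, 11.9 and 12.2 CPM in HDAC3i, 5.12, 6.22 and 6.84 in AZA, 13.5, 13.8 and 15 in HDAC3i+AZA and 6.38, 6.38 and 5.22 in vehicle. It rose by 1.03 ± 0.11 in HDAC3i (edgeR adjusted p = 8.51e-09) and by 1.23 ± 0.11 in HDAC3i+AZA (edgeR adjusted p = 1.52e-10). DNAJC1, an ER membrane J protein that can bind ribosomes, had 15.7, 13.5 and 14.4 CPM in HDAC3i, 8.75, 9.64 and 8.22 in AZA, 14.6, 15.4 and 14.6 in HDAC3i+AZA and 8.51, 9.74 and 9.29 in vehicle. It rose by 0.66 ± 0.09 in HDAC3i (edgeR adjusted p = 1.05e-06) and by 0.69 ± 0.09 in HDAC3i+AZA (edgeR adjusted p = 3.21e-07).

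A list of 7 members known as targets of the unfolded protein response ran from 0.11 to 1.01 in HDAC3i. There 6 of them rose, where 26.4% of all genes tested were called higher: HSPA5, HSP90B1, DNAJB9, HSPA13 (0.43), the disulfide reductase DNAJC10 (0.31) and DNAJC3. DNAJB11, a lumenal J protein of HSPA5, was not called at 0.11 ± 0.05 (edgeR adjusted p = 0.0698). DNAJC3, which restrains the kinase PERK, had 22.5, 24 and 24.7 CPM in HDAC3i, 17.5, 21.1 and 20.8 in AZA, 20.1, 27.3 and 19.9 in HDAC3i+AZA and 18.3, 21.3 and 19.6 in vehicle. Its rise of 0.27 ± 0.10 in HDAC3i (edgeR adjusted p = 0.0271) was lost when HDAC3i replicate 2 or 3 or vehicle replicate 1 or 3 was left out. In HDAC3i+AZA it was 0.18 ± 0.10 (edgeR adjusted p = 0.12), and it was called there at 0.26 without HDAC3i+AZA replicate 1 or 3. The ER members that fell were the membrane J proteins DNAJB12 (-0.34), DNAJB14 (-0.41) and DNAJC25 (-0.23), none of them on that list.

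DNAJB14, which works with DNAJB12 in the ER membrane, had 27.2, 24.9 and 25.9 CPM in HDAC3i, 34.8, 38.2 and 32.5 in AZA, 21.6, 21.5 and 20.4 in HDAC3i+AZA and 35.1, 35.1 and 33.2 in vehicle. The HDAC3i+AZA libraries were the lowest of all, the HDAC3i libraries came next, and neither overlapped another group. The log2 fold change against vehicle was -0.41 ± 0.07 in HDAC3i (edgeR adjusted p = 1.92e-05) and -0.70 ± 0.07 in HDAC3i+AZA (edgeR adjusted p = 2.45e-09).

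Among DNAJC proteins placed in neither ER nor mitochondria, labelled cytosolic and nuclear in the figures, more fell than rose. This mixed group has tasks outside general folding and includes the membrane protein DNAJC22, described below. Of 15 tested, 3 rose and 8 fell in HDAC3i, against 4 and 9 in HDAC3i+AZA. The shares of all genes called higher and lower were 26.4% and 24.9% in HDAC3i and 29.6% and 27.5% in HDAC3i+AZA. Among genes with a mean of at least 5 CPM 40.3% were called lower in HDAC3i. DNAJC5B, among the rises, entered the test only through the inhibitor groups. DNAJC2, which sits on ribosomes as the partner of HSPA14, had 51.4, 54.5 and 51.9 CPM in HDAC3i, 83.1, 82.6 and 78.1 in AZA, 41.6, 50.4 and 43.3 in HDAC3i+AZA and 82.3, 77.2 and 78.3 in vehicle. No inhibitor library reached the vehicle range, and the log2 fold changes were -0.59 ± 0.06 in HDAC3i (edgeR adjusted p = 1.28e-08) and -0.81 ± 0.06 in HDAC3i+AZA (edgeR adjusted p = 2.25e-11). DNAJC13, an endosomal J protein that acts on clathrin coats, had 48.4, 47.6 and 52.8 CPM in HDAC3i, 67, 73.8 and 74.5 in AZA, 40.9, 50.8 and 44.8 in HDAC3i+AZA and 69.7, 72.2 and 67.4 in vehicle. It fell by 0.49 ± 0.07 in HDAC3i (edgeR adjusted p = 1.06e-06) and by 0.62 ± 0.07 in HDAC3i+AZA (edgeR adjusted p = 1.81e-08). DNAJC6, the auxilin that uncoats clathrin vesicles, went the other way, with 21.6, 21.2 and 20.6 CPM in HDAC3i, 12.3, 13.3 and 10.5 in AZA, 17.3, 19.8 and 21.6 in HDAC3i+AZA and 13.4, 15.1 and 13.5 in vehicle. It rose by 0.59 ± 0.09 in HDAC3i (edgeR adjusted p = 4.85e-06) and by 0.49 ± 0.09 in HDAC3i+AZA (edgeR adjusted p = 5.66e-05). The other DNAJC members that fell in HDAC3i ranged from -0.27 to -0.16 and included DNAJC8, found with the spliceosome (-0.21), the histone chaperone DNAJC9 (-0.25) and DNAJC21 of ribosome maturation (-0.24). Of the exonic bases of DNAJC9 56.5% overlap FAM149B1, so its level rests on the remainder.

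DNAJC22 showed the largest change of any member above 5 CPM. It is a multi-pass membrane J protein, related to the Drosophila gene wurst that acts in endocytosis, at chr12:49346888-49357546 on the plus strand in the coordinates of the count table (GRCh38). It had 8.06, 8.7 and 7.5 CPM in HDAC3i, 2.34, 2.54 and 1.17 in AZA, 14.5, 14.6 and 13 in HDAC3i+AZA and 0.801, 0.437 and 0.96 in vehicle. The 4 groups did not overlap at all. Against vehicle the log2 fold change was 3.46 ± 0.21 in HDAC3i (edgeR adjusted p = 2.05e-13), 1.46 ± 0.25 in AZA (edgeR adjusted p = 0.000337) and 4.26 ± 0.20 in HDAC3i+AZA (edgeR adjusted p = 6.58e-16). HDAC3i+AZA exceeded HDAC3i by 0.79 ± 0.14 (edgeR adjusted p = 0.000841). With each library left out in turn, the AZA value ranged from 1.19 to 1.74 and was always called.

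Several members that were nearly silent in vehicle appeared with the inhibitor. HSPA6, a strictly stress-inducible HSP70 whose promoter holds the heat shock element shown above, had 28, 22 and 28 counts in HDAC3i, 2, 0 and 2 in AZA, 30, 34 and 22 in HDAC3i+AZA and 2, 2 and 1 in vehicle. Summed counts were 15.5 times those of vehicle in HDAC3i (95% counting interval 6.38 to 49.2) and 17.2 times in HDAC3i+AZA (7.1 to 54.3). Its level stayed below 1 CPM in every library, which is small beside HSPA8. DNAJC15, a J protein of the mitochondrial inner membrane at chr13:43023203-43114213, had 33, 54 and 62 counts in HDAC3i, 4, 0 and 4 in AZA, 55, 82 and 59 in HDAC3i+AZA and 5, 2 and 8 in vehicle. The ratio of summed counts to vehicle was 9.89 in HDAC3i (5.81 to 18.1) and 13.1 in HDAC3i+AZA (7.74 to 23.8). DNAJC5B, a relative of the cysteine string protein DNAJC5, had 11, 9 and 7 counts in HDAC3i, 2, 0 and 3 in AZA, 24, 12 and 19 in HDAC3i+AZA and 3, 0 and 1 in vehicle, with ratios of 6.72 (2.34 to 26.4) and 13.8 (5.08 to 52.3). The intervals cover counting error only. All 3 genes were called higher in both inhibitor groups, but they entered the test only through those groups, so that their number says nothing about the family. HSPA2 also failed to reach 10 counts in every vehicle library, and was called in HDAC3i+AZA (1.70 ± 0.38, edgeR adjusted p = 0.000349) and not in HDAC3i (0.79 ± 0.40, edgeR adjusted p = 0.106). The testis-type HSPA1L rose by 1.37 ± 0.25 in HDAC3i and by 1.57 ± 0.25 in HDAC3i+AZA, at 1.57 to 2.11 and 1.81 to 2.47 CPM, against 0.518 to 0.884 CPM in vehicle.

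**Figure D3:**
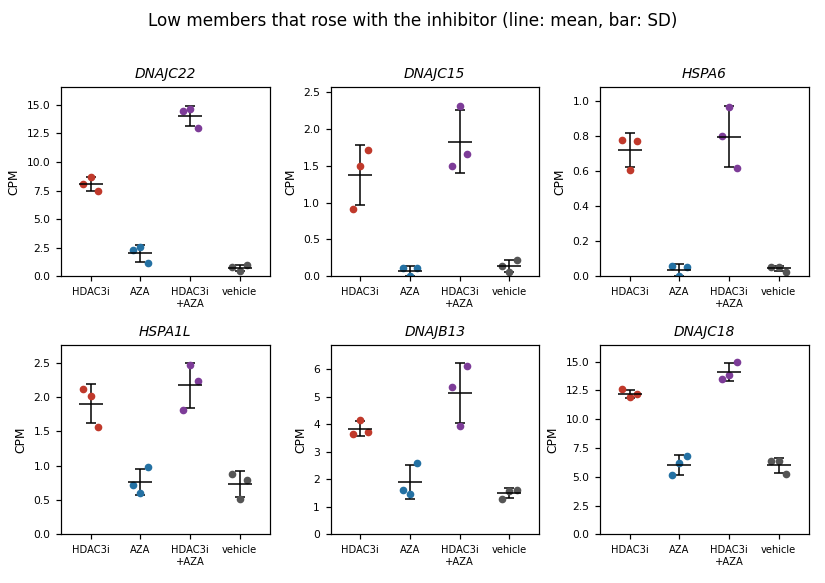
Level in CPM (vertical axis from 0) of 6 low members in each library; points are libraries, lines are means and bars are SD of 3 libraries. All 6 lie higher in HDAC3i and HDAC3i+AZA than in vehicle without overlap, and DNAJC22 alone has AZA libraries that all lie above vehicle.

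Abundant members mostly fell in HDAC3i. Of the 10 most abundant tested members 8 fell, and the other 2, which rose, were the ER chaperones HSPA5 and HSP90B1. Of all 383 genes with a mean at least that of the tenth of these members, 40.2% were called lower and 24.3% higher. Of the 11 tested members with a mean under 5 CPM 6 were called, all of them higher, a count shaped by the filter on low values, and of all genes tested below that level 31.7% were called higher and 5.26% lower.

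**Figure D4:**
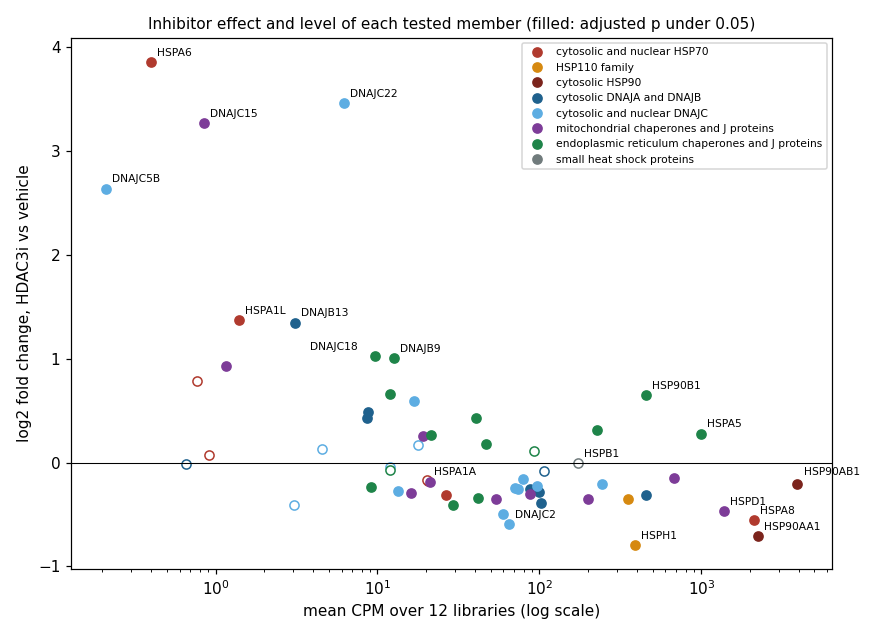
Log2 fold change of HDAC3i against vehicle (vertical axis) by mean level in CPM over the 12 libraries (horizontal log axis) for the 61 tested members, coloured by class; filled circles have an adjusted p under 0.05. Large rises lie at low level, HSPH1 at -0.79 and HSP90AA1 at -0.71 are the lowest points, and HSPA5 and HSP90B1 stand above 0 among the abundant members.

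5-azacitidine alone changed few members. In AZA 1 of 61 members rose and 2 fell, where 4.31% of all genes tested were called higher and 4.75% lower, and the median log2 fold change was 0.02. The member that rose was DNAJC22. HSPA5 fell by 0.17 ± 0.05 (edgeR adjusted p = 0.0194) and DNAJC11 by 0.19 ± 0.06 (edgeR adjusted p = 0.031), both with AZA libraries below all vehicle libraries. DNAJC11 had 83.2, 81.2 and 82.6 CPM in HDAC3i, 94.2, 86.8 and 85.2 in AZA, 79.3, 74.2 and 78.9 in HDAC3i+AZA and 97.3, 107 and 98.8 in vehicle. Both falls depended on single libraries: HSPA5 was not called without AZA replicate 3, vehicle replicate 1 or vehicle replicate 3, and DNAJC11 not without AZA replicate 2 or 3 or vehicle replicate 2 or 3. Without AZA replicate 1, the library of high mitochondrial share, 2 members rose and 4 fell, with HSPA13 (0.31), HSP90AB1 (-0.16) and DNAJA3 (-0.18) added.

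With both drugs about as many members changed as with the inhibitor alone. Against vehicle 22 members rose and 26 fell in HDAC3i+AZA, where 29.6% of all genes tested were called higher and 27.5% lower, and the median was -0.05. Of these 48 called members 47 did not overlap vehicle, the exception being DNAJC27, and the same held for 94.8% of all genes called. Without AZA replicate 1 and HDAC3i+AZA replicate 3 the counts were 23 and 24. Against AZA, 21 members rose and 26 fell in HDAC3i+AZA, where 28.7% of all genes were called higher and 25.1% lower. The comparisons HDAC3i+AZA against AZA and HDAC3i against vehicle share no library. Of the 20 members that rose in HDAC3i against vehicle 18 (90%) rose in HDAC3i+AZA against AZA, as did 85.4% of all genes called higher, and of the 28 that fell 25 (89.3%) fell, against 78.4% of all genes called lower. No member was called in opposite directions. HSPA6, DNAJC15 and DNAJC5B, among the 20 rises, entered the test only through the inhibitor groups, so their agreement between the comparisons was shaped by the filter.

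Adding 5-azacitidine to the inhibitor changed few members. Against HDAC3i, 3 members rose in HDAC3i+AZA (DNAJC22, DNAJC12 and HSPB1) and 2 fell (DNAJC2 and DNAJB14), where 4.51% of all genes were called higher and 2.83% lower. DNAJC12, a partner of the aromatic amino acid hydroxylases, had 20.7, 23 and 19.8 CPM in HDAC3i+AZA and 18.4, 17.3 and 18 in HDAC3i, beside 16.3, 16.3 and 15.7 in AZA and 16, 15.7 and 16 in vehicle. Its difference of 0.24 ± 0.07 (edgeR adjusted p = 0.0458) lost its call under 16 of the 21 alternatives tried (edgeR adjusted p up to 0.17). DNAJB14 fell by a further 0.30 ± 0.07 (edgeR adjusted p = 0.00977), but was not called without HDAC3i replicate 1, at -0.26 (edgeR adjusted p = 0.069). DNAJC2 fell by 0.22 ± 0.06 (edgeR adjusted p = 0.0325), and was not called when any HDAC3i library or HDAC3i+AZA replicate 1 or 3 was left out. Without HDAC3i+AZA replicate 2 the members that fell numbered 8.

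The interaction, that is the AZA effect with the inhibitor minus that without it, was called for 0 of the 61 members by edgeR, where 0.263% of all genes tested were called higher and 0.453% lower. At an unadjusted p under 0.05 there were 8 members, and the smallest adjusted p was 0.122, for DNAJB14 (-0.33 ± 0.10). DESeq2 called 1 member, DNAJB14 (-0.34, DESeq2 adjusted p = 0.0342). For DNAJC22 the interaction was -0.67 ± 0.30 (edgeR adjusted p = 0.335), so a difference between its AZA effects did not pass the test.

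Partners of the chaperones were read from a list of 61 genes set by function, of which 55 were tested. In HDAC3i 12 of them rose and 27 fell, in AZA 5 were called, all lower, and in HDAC3i+AZA 9 rose and 33 fell. The shares of all genes called, given above, were 26.4% higher and 24.9% lower in HDAC3i, 4.31% and 4.75% in AZA, and 29.6% and 27.5% in HDAC3i+AZA. Most tested partners had a mean of at least 5 CPM, and among all genes of that level 22.2% were called higher and 40.3% lower in HDAC3i. The cytosolic chaperonin and its supplier prefoldin, which fold actin and tubulin, fell together: 11 of 15 genes fell and 1 rose in HDAC3i, against 13 and 1 in HDAC3i+AZA, with TCP1 at -0.41, CCT2 at -0.47 and VBP1 at -0.50 in HDAC3i. PFDN5 had the largest fall of these genes, with 4.02, 4.79 and 4.16 CPM in HDAC3i, 6.03, 6.63 and 6.95 in AZA, 4.93, 4.48 and 3.68 in HDAC3i+AZA and 6.3, 7.18 and 6.95 in vehicle. How much of its exon sequence is shared with other genes was not computed, so its level may be understated. The gene that rose was CCT6B, a low-level testis-type subunit (1.35). Of 16 tested HSP90 co-chaperones 9 fell and 2 rose in HDAC3i. CHORDC1, an HSP90 partner, had 95.5, 86.2 and 79.8 CPM in HDAC3i, 154, 161 and 153 in AZA, 81.5, 97.9 and 78.5 in HDAC3i+AZA and 146, 145 and 131 in vehicle, a fall of 0.69 ± 0.07 in HDAC3i (edgeR adjusted p = 6.17e-09). The HSP90 activator AHSA1 (-0.45), the immunophilin FKBP4 (-0.41) and the HSP70-HSP90 adaptor STIP1 (-0.32) fell too, and the kinase adaptor CDC37 did not pass (0.01).

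Exchange factors and other co-chaperones of HSP70 moved in both directions. Of 14, 4 rose and 7 fell in HDAC3i, where 26.4% of all genes tested were called higher and 24.9% lower. Among genes with a mean of at least 5 CPM 40.3% were called lower there. SIL1, the exchange factor of HSPA5 in the ER, had 25.2, 23.2 and 25.3 CPM in HDAC3i, 11.3, 13 and 13.1 in AZA, 23.2, 26 and 24.7 in HDAC3i+AZA and 13.7, 10.8 and 14.4 in vehicle. The inhibitor libraries stood clear of the rest, and the rise was 0.92 ± 0.09 in HDAC3i (edgeR adjusted p = 3.59e-09). BAG3, which links HSP70 to autophagy, had 11.7, 11.4 and 11.3 CPM in HDAC3i, 7.52, 8.05 and 6.98 in AZA, 12.5, 14.4 and 17.1 in HDAC3i+AZA and 5.88, 7.53 and 6.83 in vehicle. It rose by 0.76 ± 0.11 in HDAC3i (edgeR adjusted p = 2.58e-06) and by 1.12 ± 0.11 in HDAC3i+AZA (edgeR adjusted p = 2.02e-09). BAG2, BAG4, BAG5 and the mitochondrial GRPEL1 fell, by 0.43 to 0.51 on the log2 scale in HDAC3i.

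Transcripts of the heat shock factors were read beside their targets. HSF1, the main heat shock factor, had 114, 114 and 114 CPM in HDAC3i, 103, 104 and 106 in AZA, 115, 108 and 114 in HDAC3i+AZA and 121, 114 and 126 in vehicle. It was not called in HDAC3i (-0.08 ± 0.05, edgeR adjusted p = 0.209), and it fell in AZA by 0.20 ± 0.05 (edgeR adjusted p = 0.0113). HSF2 had 20.6, 20.4 and 18.1 CPM in HDAC3i, 19.1, 20.6 and 17.9 in AZA, 16.3, 19.2 and 15.9 in HDAC3i+AZA and 19.4, 19.6 and 20.5 in vehicle, and fell in HDAC3i+AZA by 0.21 ± 0.08 (edgeR adjusted p = 0.0342). The gene of this list that rose in HDAC3i was HSBP1 (0.31), a protein that binds HSF1 and is known to restrain it. Among the partners that fell in AZA were the mitochondrial HSP90 TRAP1 (-0.30 ± 0.05, edgeR adjusted p = 0.000467), at 153, 156 and 147 CPM in AZA and 198, 176 and 187 in vehicle, and CLPB, a mitochondrial disaggregase (-0.28 ± 0.06, edgeR adjusted p = 0.00289), at 31.4, 30.7 and 32.6 CPM in AZA and 38.3, 37.5 and 39.6 in vehicle.

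**Figure D5:**
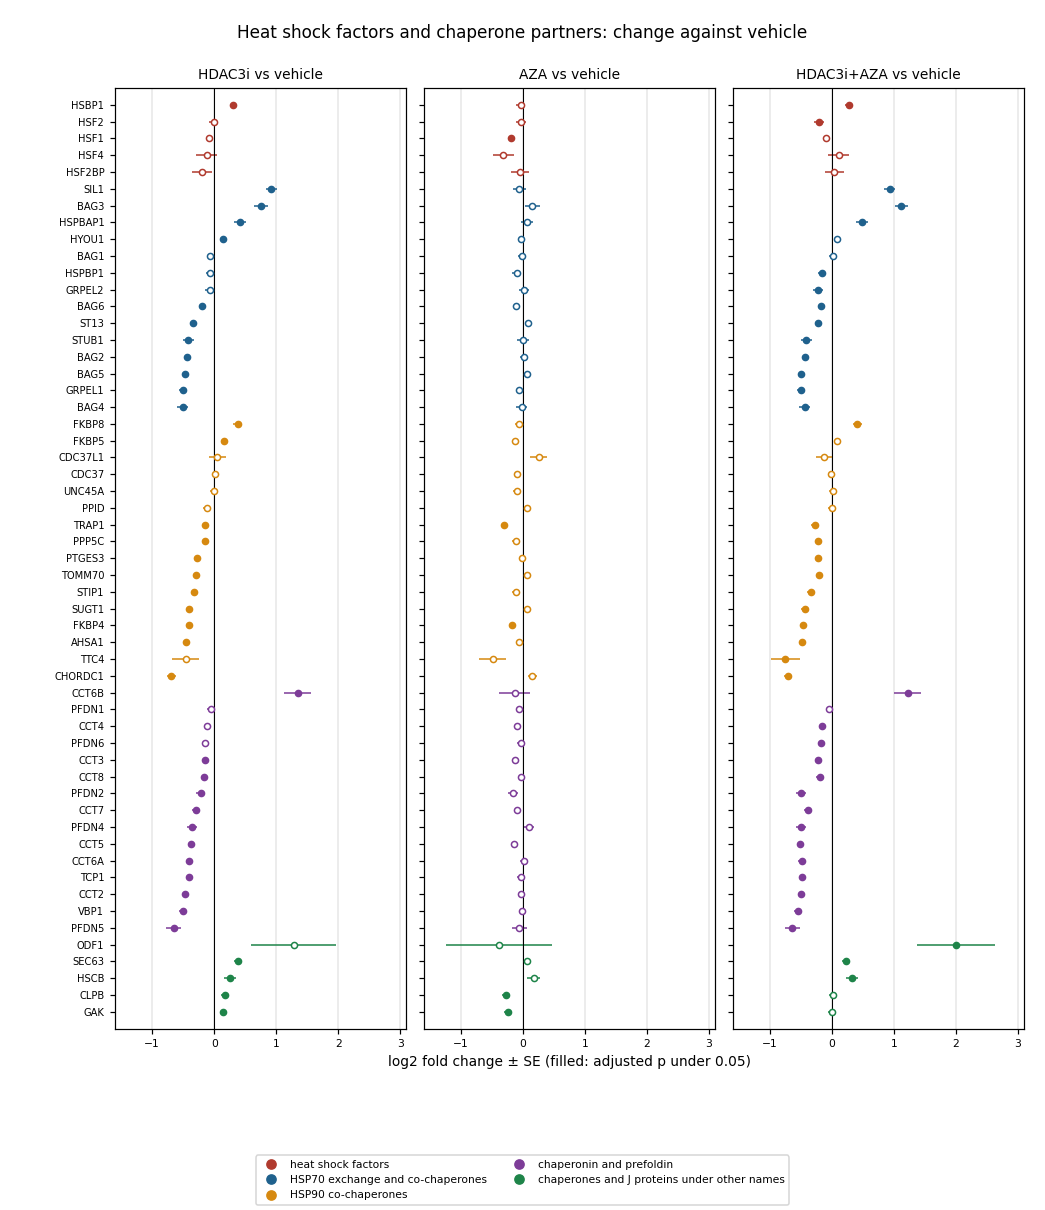
Log2 fold change (horizontal axis, ± SE from the edgeR fit of 3 libraries a group) of the 55 tested partner genes in HDAC3i, AZA and HDAC3i+AZA against vehicle, coloured by list; filled circles have an adjusted p under 0.05. Chaperonin and prefoldin genes lie left of 0 in both inhibitor groups except CCT6B, while SIL1 and BAG3 lie to the right, and 5 circles are filled in the AZA panel.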

How the data were processed

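Poly(A) RNA of 12 OCI-Ly7 libraries, 3 in each of the HDAC3i, AZA, HDAC3i+AZA and vehicle groups named in the sample titles, was sequenced by the authors. The deposited values are expected counts per gene of the release 114 annotation: as set out per the file headers, exonic reads were assigned with featureCounts 2.1.1, multi-mapping reads were shared out as fractions, strand was ignored and reads over more than 1 gene were dropped. Genes that overlap, sense or antisense, can therefore lose reads or share them, and near-identical genes share reads. The submitters' processing notes name STAR 2.7.11b, cutadapt 5.1 and Subread 2.1.2, and it was not settled if reads or read pairs were counted. The header names 16 libraries, and the 4 others were not analysed here.

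Counts were rounded to whole numbers, since 96.9% were whole within 1e-06, and 34 of the 73 members had fractional values. Low genes were removed with filterByExpr (edgeR 4.0.16, R 4.3.3, 4 groups). The 17869 genes left held 99.93% of the counts and were scaled by TMM. A single model of all libraries, with a mean for each group, was used, and each comparison was tested with the two-sided quasi-likelihood F-test, adjusted by Benjamini-Hochberg over all genes tested. The biological coefficient of variation was 6.05%. The procedure was tested on simulated data. Symbols came from the annotation tables given, 61461 of 78892 identifiers having one, and promoters from RefSeq.

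Members were named in the text as the largest rises and falls among called members with at least 5 CPM in the highest group and no overlap between libraries, plus a set of core chaperones. Others are given by class or were singled out after their values were seen, as were the low members HSPA6, DNAJC15, DNAJC5B, HSPA2 and HSPA1L. The members, lists, motifs and tests were chosen with earlier results of these data known, and 1 gene first on the partner list is not reported here. Alternatives were DESeq2 1.42.0 and its size factors, library totals, no filter and a filter at 5 CPM in 3 libraries, the compared groups alone, a replicate block on either numbering, each library left out, and, added after seeing the data, leaving out the pair of libraries with the highest mitochondrial share. Intervals and floors cover counting error only.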

Additional observations from a re-analysis of the deposited data

How the results depend on the processing

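Counts of members called in HDAC3i against vehicle, in HDAC3i+AZA against vehicle and in HDAC3i+AZA against AZA stayed within 1.5 times the values given under every alternative tried. In HDAC3i they ran from 17 to 22 higher and from 24 to 29 lower with each library left out, and were 16 and 23 with the filter at 5 CPM. The comparisons with few calls moved more. In AZA against vehicle (1 higher, 2 lower) no filter gave 3 and 1, the block on library-name numbers gave 1 lower, leaving out the pair of high mitochondrial share gave 2 and 4, and single libraries gave 1 to 2 and 0 to 4. In HDAC3i+AZA against HDAC3i (3 higher, 2 lower) the block on library-name numbers gave 6 lower, leaving out the pair gave 1 lower, and single libraries gave 1 to 4 and 0 to 8. In the interaction DESeq2 gave 1 lower and single libraries 0 to 1, the 1 being DNAJC2 without HDAC3i+AZA replicate 2. The causes were not tested.

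The uncalled log2 fold changes near 0 changed sign. HSPA1A in HDAC3i+AZA against vehicle was -0.01 with the block on library-name numbers and -0.04 to 0.19 with single libraries left out, HSPA1B there -0.04 to 0.14, and HSPB1 in HDAC3i against vehicle -0.05 to 0.06. No called value of a named member changed sign under the alternatives tried. The calls lost most often were DNAJC12 in HDAC3i+AZA against HDAC3i (16 of 21 alternatives), HSPA9 in HDAC3i+AZA against AZA (7), DNAJC2 in HDAC3i+AZA against HDAC3i (6) and DNAJC11 in AZA against vehicle (6). Same-numbered libraries did not visibly deviate together, with correlations between -0.06 and 0.07. With 3 libraries a group this cannot exclude that same-numbered libraries were handled together. With the replicate block on title numbers 20 members rose and 28 fell in HDAC3i, 22 and 27 in HDAC3i+AZA against vehicle, and DNAJB1 was called lower there at -0.14 (edgeR adjusted p = 0.0448). At these depths members under about 10 counts could not be compared, and the smallest falls, such as that of HSPA9, changed with the filter.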

Other observations

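Other chaperones and proteins with a J or small heat shock domain that carry other names were read beside the families. Of 9 such genes 5 were tested, and 4 were called in HDAC3i, all higher, where 26.4% of all genes were called higher. SEC63, the J protein of the ER import channel, had 119.7, 120.2 and 124 CPM in HDAC3i and 90.2, 94 and 95.5 in vehicle, a rise of 0.38 ± 0.06 (edgeR adjusted p = 3.06e-06). HSCB, also on this list, rose by 0.26 ± 0.10 (edgeR adjusted p = 0.0268), at 11.3, 10.8 and 10.2 CPM in HDAC3i and 8.26, 9.66 and 9.01 in vehicle. HYOU1, the large HSP70 relative of the ER, was counted above among the HSP70 co-chaperones and not on this list. It rose by 0.14 ± 0.05 (edgeR adjusted p = 0.0239), at 272, 283 and 270.2 CPM in HDAC3i and 252, 246 and 252 in vehicle. GAK, the ubiquitous auxilin, rose in HDAC3i by 0.15 ± 0.06 (edgeR adjusted p = 0.0393) and fell in AZA by 0.25 ± 0.06 (edgeR adjusted p = 0.00972), and CLPB, which is neither a J protein nor a small heat shock protein, rose in HDAC3i by 0.17 ± 0.06. The alpha-crystallins CRYAA and CRYAB and the collagen chaperone SERPINH1 were too low to test.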
